A study of Mus musculus with 13 samples.

Results

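The immediate early response genes examined here were Fos, Fosb, Fosl1, Junb, Egr1, Egr3, Ier2, Nr4a1, Atf3 and Dusp1, chosen by symbol. All 10 were measured, each by 1 probe set, among the 15437 genes of the table. The samples were sciatic nerves of BKS mice aged 24 weeks, 7 from heterozygous db/+ mice (101, 103, 104, 105, 106, 404 and 407) and 6 from homozygous db/db mice (110, 111, 112, 409, 410 and 411). The db allele is a mutation of the leptin receptor gene that is carried in every tissue. Homozygotes become obese and diabetic, and the db/+ controls also carry 1 copy of the mutation. The comparison asked which transcripts differ between nerve of this model of type 2 diabetes and nerve of its control. Levels are log2 values normalized by RMA, so a difference of 1 is a doubling. Whether every numbered sample is a different mouse is not said in the labels, so p-values measure the spread between these samples.

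Immediate early genes are transcribed within minutes of a stimulus, without new protein synthesis, when kinase cascades reach factors already bound near their start sites, such as CREB, serum response factor and the ternary complex factors. Most encode transcription factors, and their mRNAs are short lived. In peripheral nerve the AP-1 proteins and ATF3 are best known from the response of Schwann cells and neurons to axonal injury, and EGR proteins from the control of the Schwann cell programme. The levels here come from whole nerve, in which fewer cells of a type and less RNA per cell cannot be told apart.

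A promoter entry was given for 6 of the 10 genes, Fos, Fosb, Junb, Nr4a1, Atf3 and Dusp1, in the RefSeq promoter table of build GRCm38.p6. The 250 bases before the start are shown for Fos, Fosb, Junb and Nr4a1, whose levels are compared as pairs further on, and for Atf3, which differed between the genotypes. Each is written 5′ to 3′ on the strand of its gene. Capitals mark the cAMP response element core TGACG, or CGTCA where it lies on the other strand. The Fos region is chr12:85473640-85473889 on the plus strand, the Fosb region chr7:19310046-19310295 on the minus strand, the Junb region chr8:84978749-84978998 on the minus strand, the Nr4a1 region chr15:101266596-101266845 on the plus strand, and the Atf3 region chr1:191183334-191183583 on the minus strand.
Fos: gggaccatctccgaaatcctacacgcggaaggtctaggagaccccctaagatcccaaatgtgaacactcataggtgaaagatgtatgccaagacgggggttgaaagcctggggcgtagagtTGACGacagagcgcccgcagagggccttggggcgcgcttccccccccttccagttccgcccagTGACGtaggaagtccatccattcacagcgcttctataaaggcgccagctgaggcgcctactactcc
Fosb: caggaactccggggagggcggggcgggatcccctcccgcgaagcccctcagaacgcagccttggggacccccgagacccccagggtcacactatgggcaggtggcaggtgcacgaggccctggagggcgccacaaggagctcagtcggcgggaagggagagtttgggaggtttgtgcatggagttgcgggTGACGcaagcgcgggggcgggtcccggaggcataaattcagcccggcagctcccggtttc
Junb: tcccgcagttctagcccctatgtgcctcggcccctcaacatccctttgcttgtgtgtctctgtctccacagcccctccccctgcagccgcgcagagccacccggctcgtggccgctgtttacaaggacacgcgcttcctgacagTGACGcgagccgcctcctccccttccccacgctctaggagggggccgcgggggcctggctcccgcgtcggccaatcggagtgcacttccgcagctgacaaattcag
Nr4a1: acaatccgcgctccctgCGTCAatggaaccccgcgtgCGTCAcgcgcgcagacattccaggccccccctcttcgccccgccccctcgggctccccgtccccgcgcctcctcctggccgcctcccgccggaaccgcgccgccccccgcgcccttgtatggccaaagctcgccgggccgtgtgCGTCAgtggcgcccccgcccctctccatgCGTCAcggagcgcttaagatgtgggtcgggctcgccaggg
Atf3: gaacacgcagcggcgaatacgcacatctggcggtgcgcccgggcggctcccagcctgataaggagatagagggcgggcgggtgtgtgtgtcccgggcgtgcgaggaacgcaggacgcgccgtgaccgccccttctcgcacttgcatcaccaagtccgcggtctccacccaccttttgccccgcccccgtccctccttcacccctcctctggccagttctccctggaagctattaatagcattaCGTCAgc

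Motifs were searched on both strands over 300 bases, from 250 before to 50 after the start. TGACG was present in 6 of the 6 promoters and in 20.8% of the 32851 promoters of the table. Fos held 2 matches, at positions -129 to -125 and -66 to -62 from the start, and Nr4a1 held 4. Fosb, Junb and Atf3 held 1 each, at -60 to -56, -106 to -102 and -7 to -3. The full palindrome TGACGTCA, which contains TGACG on each strand, was found in Dusp1 and in 1.79% of all promoters. The EGR site GCGNGGGCG was found in Fosb and Nr4a1, against 5.55% of all promoters. TATAA was found in Fos at -33 to -29 and in Junb at 1 to 5, past the 250 bases before the start, against 24.9%. The AP-1 site TGANTCA was found in 0 of the 6 and in 7.81% of all promoters, and the CArG box in 0 of the 6 and in 1.63%. These matches describe the letters of the windows, and sites outside the 300 bases were not searched.

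Array medians lay between 8.63 and 8.71, correlations between arrays across genes between 0.894 and 0.989, and 0 pairs of arrays were identical. The actin control probes, 3′ minus 5′, differed by 0.96 to 1.39 in db/+ arrays other than 407 (0.40), and by 0.48 to 0.92 in db/db. For the Gapdh control probes the ranges were 0.55 to 1.34 in db/+ and 0.50 to 0.87 in db/db. The part of RNA quality in the genotype differences was not tested. Lepr, the mutated gene, was 7.72 ± 0.79 (SD, n = 7) in db/+ and 6.30 ± 0.28 (SD, n = 6) in db/db nerve. A list of 10 Schwann cell and myelin markers had a mean level of 9.34 to 11.46 on the 13 arrays. The mean of 15 neuronal markers split the controls: it was 11.37 to 12.10 in db/+ 101, 103, 104 and 106, 7.13 to 8.01 in the other 3 db/+ arrays and 6.33 to 7.01 in db/db. These 4 db/+ arrays are therefore shown apart, and the genotype differences of the members are given with and without them. The sample numbers fall into a lower series, 101 to 112 (5 db/+ and 3 db/db arrays), and a higher one, 404 to 411 (2 db/+ and 3 db/db arrays). What the series mark is not stated.

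The members did not move as a group between the genotypes. With limma over all genes (Benjamini-Hochberg adjusted p below 0.05), 4 of the 10 differed, against 25.1% of all genes tested. Fosl1, Atf3 and Egr3 were higher in db/db nerve, 3 of 10 against 13.4% of all genes, and Fosb was lower, 1 of 10 against 11.7%. The median log2 difference of the members was -0.19, and that of all genes 0.02. Levels of db/+ and db/db did not overlap for 1 of the 10, Fosl1, against 9.68% of all genes.

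**Figure D1:**
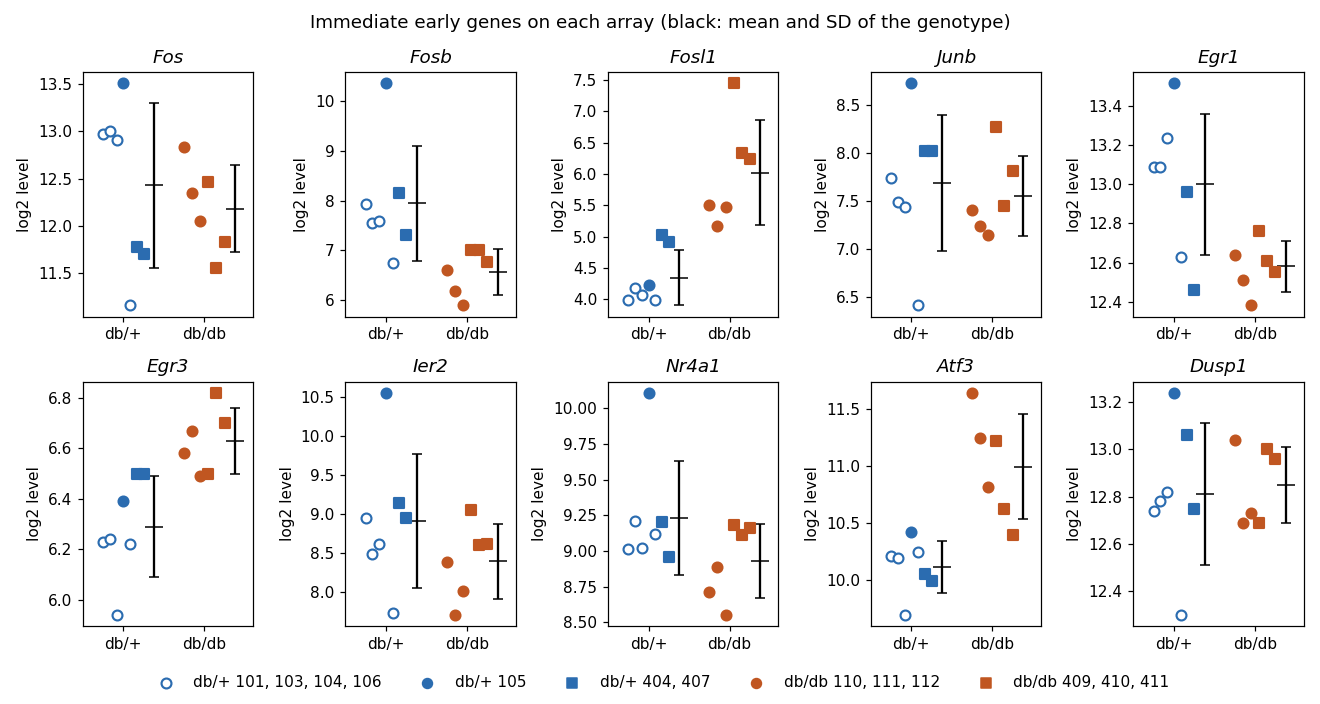
Level (log2, RMA) of each of the 10 genes on every array, by genotype, with open circles for db/+ 101, 103, 104 and 106, filled circles for the other arrays numbered 101 to 112 and squares for arrays 404 to 411; black bars give the genotype mean and SD. Fosl1 and Atf3 are higher in db/db, Fosb is lower, and db/+ 105 is the highest array for 7 of the 10 genes.

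Fosl1 encodes FRA-1, a Fos family protein that pairs with Jun proteins in AP-1 and lacks the strong activation domain of Fos. It read 3.98, 4.18, 4.06 and 3.99 for db/+ 101, 103, 104 and 106, then 4.23, 5.03 and 4.91 for db/+ 105, 404 and 407. Nerves of db/db mice gave 5.5, 5.16 and 5.47 (110, 111 and 112) and 7.45, 6.34 and 6.23 (409, 410 and 411). Every db/db array was above every db/+ array, and within each genotype the arrays numbered from 404 upward were the highest. Group means were 4.34 ± 0.44 (SD, n = 7) for db/+ and 6.02 ± 0.84 (SD, n = 6) for db/db, a log2 difference of 1.68 ± 0.34 (SE) or 3.21-fold (limma, adjusted p = 0.00365). The exact two-sided permutation p was 0.000583, the smallest that 1716 assignments can give. The call held when any 1 array was left out (adjusted p 0.00266 to 0.0101). Without db/+ 101, 103, 104 and 106 the difference was 1.30 ± 0.46 (SE, adjusted p = 0.0968), and 1.48 with the number series also in the fit (adjusted p = 0.00891). It is the only member whose mean lay below the 0.25 quantile of all genes, where RMA compresses folds.

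Atf3 encodes a stress-induced CREB/ATF family factor that is widely used as a mark of injured neurons. It stood at 10.21, 10.19, 9.69 and 10.24 in db/+ 101, 103, 104 and 106, and at 10.42, 10.05 and 9.99 in db/+ 105, 404 and 407. The db/db arrays read 11.64, 11.24 and 10.81 in 110, 111 and 112, and 11.22, 10.62 and 10.39 in 409, 410 and 411. The groups overlapped only where db/db 411 lay just under db/+ 105. Mean levels came to 10.11 ± 0.23 (SD, n = 7) in db/+ nerve and 10.99 ± 0.46 (SD, n = 6), a log2 difference of 0.88 ± 0.19 (SE) or 1.83-fold (limma, adjusted p = 0.00528; exact permutation p = 0.00117). Atf3 passed when any 1 array was left out (adjusted p 0.00258 to 0.0146). Without db/+ 101, 103, 104 and 106 the difference was nearly as large, 0.83 ± 0.26 (SE), at an adjusted p of 0.0656. With the number series also in that fit it was 0.76 at an adjusted p of 0.0461.

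Fosb encodes an AP-1 subunit whose truncated form, ΔFosB, builds up in brain under repeated stimulation. The db/+ arrays 101, 103, 104 and 106 gave 7.93, 7.56, 7.60 and 6.75, and 105, 404 and 407 gave 10.37, 8.15 and 7.31. The db/db arrays 110, 111 and 112 gave 6.60, 6.18 and 5.89, and 409, 410 and 411 gave 7.0, 7.01 and 6.76. Every db/+ array but 106 was above every db/db array, and db/+ 105 was 2.22 above the next. On average db/+ stood at 7.95 ± 1.16 (SD, n = 7) and db/db at 6.57 ± 0.46 (SD, n = 6), so Fosb fell by 1.38 ± 0.46 (SE) on the log2 scale, or 2.60-fold (limma, adjusted p = 0.0451; exact permutation p = 0.00641). The call lay close to the threshold and was lost in 10 of the 13 fits that left out 1 array, being kept without 105, 106 or 407 (adjusted p 0.0156 to 0.0879). It was also lost with renewed quantile normalization (-1.27, adjusted p = 0.0642) and with array weights (-1.0, adjusted p = 0.0506). Without db/+ 105 the difference shrank to -0.98 with a smaller adjusted p, 0.0156. Without db/+ 101, 103, 104 and 106 it was -2.04 ± 0.57 (SE, adjusted p = 0.0452), and with the number series as a block -1.43 (adjusted p = 0.05).

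Fos, the founding AP-1 subunit, was abundant in both genotypes. It ranged from 11.16 to 13.51 in db/+ (median 12.91) and from 11.56 to 12.83 in db/db (median 12.20). The db/+ arrays lay on both sides of db/db: 101, 103, 104 and 105 were above every db/db array, 106 was below every one, and 404 and 407 lay within the db/db range. The log2 difference was -0.25 ± 0.37 (SE; limma, adjusted p = 0.653), and -0.15 without db/+ 101, 103, 104 and 106 (adjusted p = 0.861). Junb, a Jun family partner of Fos proteins, lay between 6.41 and 8.73 in db/+ (median 7.74) and between 7.14 and 8.27 in db/db (median 7.43). The lowest and highest of all arrays were db/+ 106 and db/+ 105, and the difference was -0.14 ± 0.31 (SE, adjusted p = 0.775). Without db/+ 101, 103, 104 and 106 the Junb difference was -0.70 ± 0.27 (SE; limma, unadjusted p = 0.0255, adjusted p = 0.116).

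The EGR zinc finger genes differed from each other. Egr1, for db/+ 101, 103, 104 and 106, measured 13.09, 13.09, 13.24 and 12.63, and for db/+ 105, 404 and 407 it measured 13.52, 12.96 and 12.46. For db/db 110, 111 and 112 it measured 12.64, 12.51 and 12.38, and for 409, 410 and 411 it measured 12.76, 12.61 and 12.55. Of the db/+ arrays, 106 and 407 lay among the db/db arrays. The means of 13 ± 0.36 (SD, n = 7) and 12.58 ± 0.13 (SD, n = 6) gave a log2 difference of -0.42 ± 0.15 (SE; limma, adjusted p = 0.0572), just outside the threshold. It passed without db/+ 106 (adjusted p = 0.0413) or db/+ 407 (adjusted p = 0.0135), with array weights (adjusted p = 0.0247) and with an intensity trend (adjusted p = 0.0422). It was not called in 11 of the 13 fits that left out 1 array (adjusted p up to 0.108). Nor was it called with the number series as a block (adjusted p = 0.0763) or by the exact rank-sum test (adjusted p = 0.14). The Egr1 difference was -0.41 without db/+ 101, 103, 104 and 106 (adjusted p = 0.216). In arrays 404 to 411 alone it was -0.07 (adjusted p = 0.829). Egr3, which acts in muscle spindles and lymphocytes, rose by a small amount. Arrays 101, 103, 104 and 106 of db/+ spanned 5.94 to 6.24, db/+ 105, 404 and 407 read 6.39, 6.5 and 6.5, and db/db spanned 6.49 to 6.82. The groups met only at 6.49 to 6.5. The log2 difference was 0.34 ± 0.10 (SE; limma, adjusted p = 0.0279; exact permutation p = 0.00524). Egr3 was not called without db/+ 103, db/+ 106, db/db 111, db/db 410 or db/db 411 (adjusted p 0.0168 to 0.0629 over the 13 fits). Nor was it called with an intensity trend (adjusted p = 0.0576, or 0.0568 with robust moderation), in arrays 101 to 112 (adjusted p = 0.0588) or without db/+ 105 and 106 (adjusted p = 0.0612), and the difference was 0.17 without db/+ 101, 103, 104 and 106 (adjusted p = 0.329).

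The remaining members gave no call. Ier2, a short nuclear protein induced by growth factors, ranged from 7.74 to 10.56 in db/+ (median 8.95) and from 7.71 to 9.05 in db/db (median 8.50). Its log2 difference was -0.52 ± 0.36 (SE; limma, adjusted p = 0.317), and -1.15 without db/+ 101, 103, 104 and 106 (adjusted p = 0.0814). Nr4a1, the orphan nuclear receptor NUR77, was 8.96 to 10.11 in db/+ (median 9.12) and 8.55 to 9.18 in db/db (median 9.0), with a difference of -0.30 ± 0.18 (SE, adjusted p = 0.246). Without db/+ 101, 103, 104 and 106 the Nr4a1 difference was -0.49 (adjusted p = 0.235). For both genes the db/+ array 105 stood above every other array and the remaining arrays of the genotypes overlapped. Dusp1, the phosphatase that switches off the MAP kinases, was 12.30 to 13.24 in db/+ (median 12.78) and 12.69 to 13.04 in db/db (median 12.84). Its difference was 0.04 ± 0.14 (SE, adjusted p = 0.861), and -0.17 without db/+ 101, 103, 104 and 106 (adjusted p = 0.48).

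**Figure D2:**
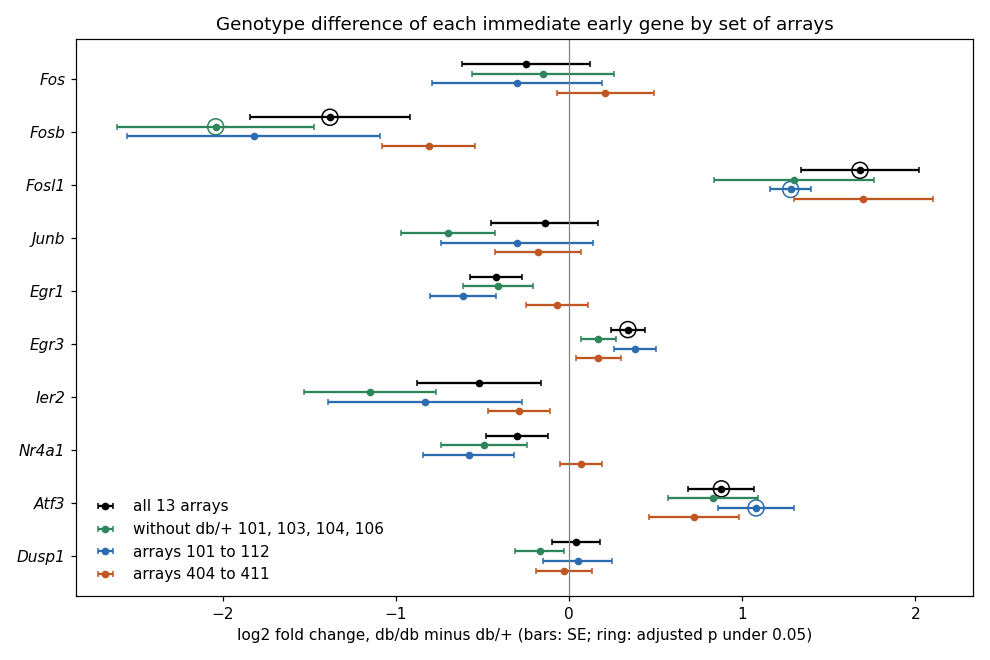
Log2 fold change (db/db minus db/+, points) with its SE (bars) for each gene in all 13 arrays, without db/+ 101, 103, 104 and 106, in arrays 101 to 112 and in arrays 404 to 411; rings mark an adjusted p below 0.05. Fosl1 and Atf3 lie to the right and Fosb to the left of 0 in each of the 4 sets, whereas Fos, Nr4a1 and Dusp1 change side.

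The number of members called depended on which arrays were used. Without db/+ 101, 103, 104 and 106 it was 1 of 10 (Fosb), against 12.9% of all genes. Arrays 101 to 112 alone gave 2 of 10 (Fosl1 and Atf3), against 18.5% of all genes. Arrays 404 to 411 alone gave 0 of 10, against 9.10%, with 3 members at an unadjusted limma p below 0.05. With the number series as a block 3 of 10 were called (Fosl1, Egr3 and Atf3), against 27.4%. An exact rank-sum test on all 13 arrays called the same 4 members as limma. Fosl1 was 1.28 higher in db/db in arrays 101 to 112 (adjusted p = 0.00144) and 1.70 higher in arrays 404 to 411 (adjusted p = 0.0631). Atf3 was 1.08 higher (adjusted p = 0.0179) and 0.72 higher (adjusted p = 0.151) in the same sets, and Fosb -1.82 (adjusted p = 0.116) and -0.81 (adjusted p = 0.13). The difference between the series' genotype effects passed for 0 of the 15437 genes in limma, with 2360 at an unadjusted p below 0.05. Between the series themselves, at equal genotype, 1 of 10 members differed, against 17.0% of all genes: Fosl1 was 1.09 ± 0.19 (SE) higher in arrays 404 to 411 (adjusted p = 0.0036). It was also the 1 member of 10, against 7.49% of all genes, with every array from 404 to 411 above every array from 101 to 112 in both genotypes.

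Marker lists of other cell types were counted in the same limma fit, in which 13.4% of all genes were higher and 11.7% lower. Without db/+ 101, 103, 104 and 106, 12.9% of all genes were called. Of 10 adipocyte markers 6 were higher and 0 lower in db/db (4 and 0 without db/+ 101, 103, 104 and 106), and the list mean was 11.31 to 12.24 in db/+ 101, 103, 104 and 106, 11.88 to 12.35 in the other db/+ arrays and 12.50 to 12.67 in db/db. Of 10 macrophage markers 2 were higher and 0 lower (0 called without those 4 arrays, 1 at an unadjusted limma p below 0.05, and 0 by the exact rank-sum test on all arrays), with list means of 11.22 to 11.54, 11.60 to 12.55 and 11.47 to 12.33 in the same order. Of 15 neuronal markers 13 were lower, and 5 without those 4 arrays. Of 10 Schwann cell and myelin markers 7 were lower, and 0 without the 4, with 4 at an unadjusted limma p below 0.05. Of 10 skeletal muscle markers 0 were called by limma or the exact rank-sum test, with 1 at an unadjusted limma p below 0.05, and the list had list means from 6.63 to 12.09. The part of these markers in the differences of Fosl1, Atf3, Egr3 and Fosb was not tested.

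Within db/+ nerve, the members were high together in 105 and many of them low together in 106. After the values were seen, it was counted that db/+ 105 was the highest of all 13 arrays for 7 of 10 members, against 8.57% of all genes. Relative to the db/+ mean it was 2.42 higher for Fosb, 1.64 for Ier2, 1.08 for Fos, 1.04 for Junb, 0.88 for Nr4a1, 0.53 for Egr1 and 0.43 for Dusp1. Fosl1 was not raised in this array, at -0.11. In db/+ 106 the deviations were -1.28 for Junb, -1.27 for Fos, -1.20 for Fosb, -1.19 for Ier2 and -0.52 for Dusp1, and this array was the lowest of all 13 for Fos, Junb and Dusp1. Among db/db arrays, 409 was the highest for 5 of 10 members, with Fosl1 1.43, Junb 0.72 and Ier2 0.65 above the db/db mean. Egr3 and Dusp1 were below that mean in 409, at -0.13 and -0.16. The shares of all genes lowest in db/+ 106, or highest among db/db in 409, were not counted, so these counts have no reference. The neuronal list mean was 8.01 in db/+ 105 and 11.54 in db/+ 106, the macrophage list mean 11.85 and 11.25, and the difference of the actin control probes, 3′ minus 5′, 1.0 and 1.20. Their part in the deviations was not tested. Without db/+ 105 and 106, 3 of 10 members were called (Fosb, Fosl1 and Atf3), against 19.2% of all genes.

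**Figure D3:**
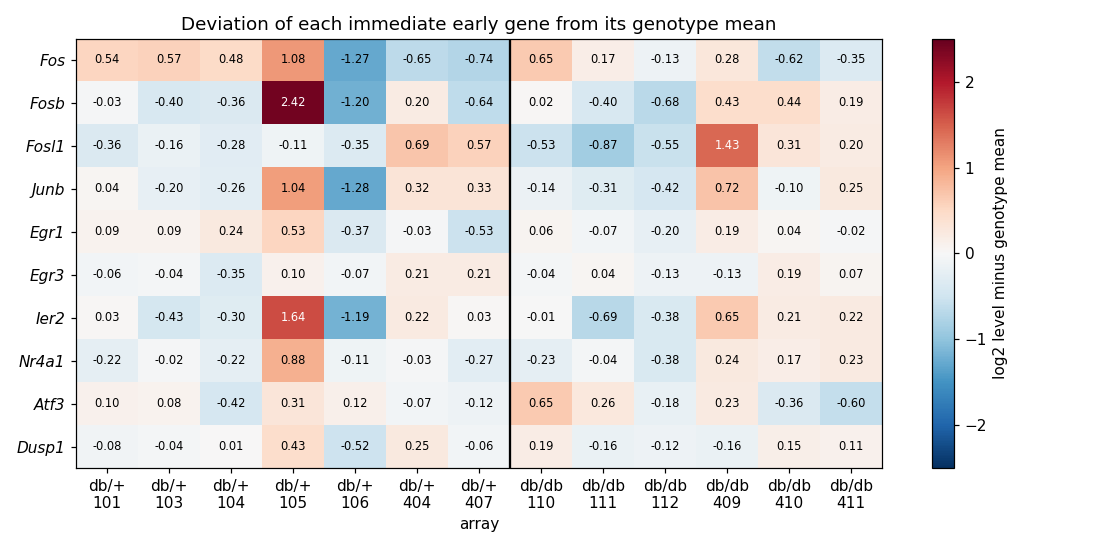
Deviation of each gene's level (log2) from its genotype mean on each of the 13 arrays, shown by colour. The db/+ 105 column is raised for Fosb, Ier2, Fos, Junb and Nr4a1, the db/+ 106 column is lowered for Junb, Fos, Fosb and Ier2, and Fosl1 stands out in db/db 409.

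Co-variation between members was measured over the 13 arrays after subtracting each genotype's mean, for all 45 pairs, with p from permutation within genotypes. Pearson's r was positive for 39 of 45 pairs, with a median of 0.42, and 5 pairs passed at a Benjamini-Hochberg adjusted p below 0.05. Ier2 followed Fosb (r = 0.93, rho = 0.87, permutation p = 0.00021, adjusted p = 0.00562) and Junb (r = 0.93, rho = 0.91, permutation p = 0.00025, adjusted p = 0.00562). The 2 arrays farthest from the median of the first gene, Fosb or Junb, were db/+ 105 and 106 in both cases. Without them, r was 0.79 for Fosb with Ier2 and 0.88 for Junb with Ier2. The other pairs lay at the threshold, each with an adjusted permutation p of 0.0499. They were Fosb with Nr4a1 (r = 0.88, rho = 0.73, and r = 0.75 without 2 arrays), Fos with Egr1 (r = 0.80, rho = 0.80, then 0.62) and Fosb with Egr1 (r = 0.79, rho = 0.65, then 0.54). The 2 arrays left out were db/+ 105 and 106 for the Fosb pairs, but db/+ 106 and 407 for Fos with Egr1. Without db/+ 105 and 106, Fos with Egr1 had r = 0.65 (adjusted permutation p = 0.224). By rho, only the pairs of Ier2 with Fosb and with Junb passed (adjusted permutation p = 0.00697 and 0.0027). Within the genotypes, Ier2 and Junb correlated at r = 0.95 in db/+ and 0.87 in db/db, but Fos and Fosb at 0.67 in db/+ and -0.17 in db/db.

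The number of pairs called depended on which arrays were used. It was 2 to 6 when any 1 array was left out, with 4 without db/+ 105 and 3 without db/+ 106. The median r was 0.29 without db/+ 105 and 0.31 without db/+ 106. Without both, the median r was 0.20, 29 of 45 pairs were positive and 3 pairs passed, of which 1, Junb with Ier2, had also passed over all arrays (r = 0.88, adjusted permutation p = 0.0421). Fosb with Ier2 then had an adjusted permutation p of 0.129. The others that passed were Fosl1 with Junb (r = 0.91) and Fosl1 with Ier2 (r = 0.87), each at an adjusted permutation p of 0.0421. Over all 13 arrays these pairs had r = 0.57 (adjusted permutation p = 0.0778) and 0.47 (adjusted permutation p = 0.189), and the median r of Fosl1 with the other members was 0.25. Atf3 had a median r of 0.09 and passed with no partner in either set of arrays. The pair of Fos and Atf3 reached r = 0.93 among the 6 db/db arrays and 0.16 among the 7 db/+ arrays, a contrast chosen after its values were seen and not tested. Fosl1 and Junb reached 0.92 in db/db, where 409 was the highest for both.

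**Figure D4:**
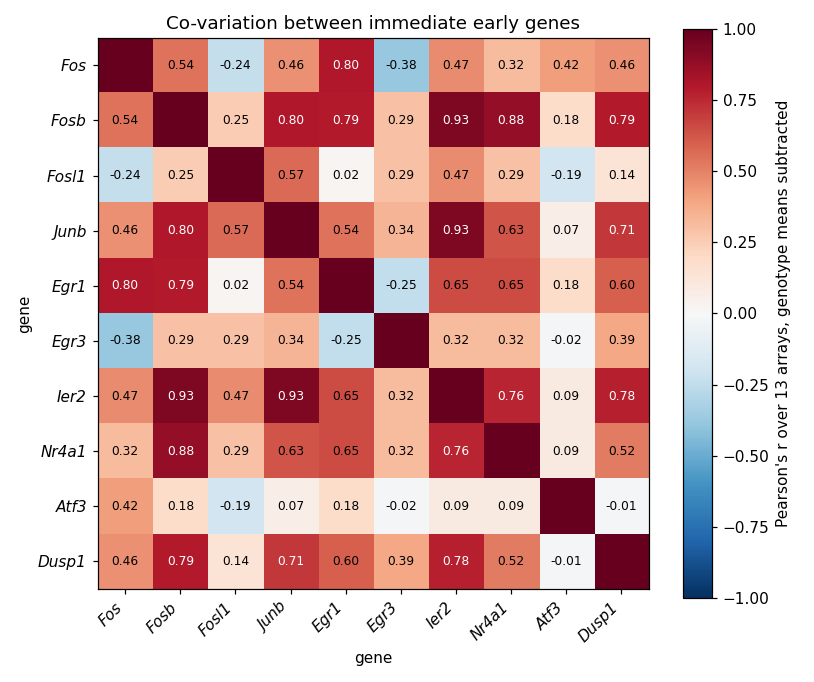
Pearson's r of each pair of the 10 genes over 13 arrays, with genotype means subtracted, shown by colour and value. Fosb has r of 0.79 or more with Junb, Egr1, Ier2, Nr4a1 and Dusp1, Ier2 has 0.93 with Fosb and with Junb, and the Atf3 row has a median of 0.09.

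Among genes outside the set, those most like the members' mean level, by Pearson's r over the 13 arrays with genotype means subtracted, were Zfp36 (0.96), Nln (0.93), Proz (0.91), Tpbpb (0.89), Rorb (0.89) and Fasl (0.88). Tpbpb, Rorb and Fasl were dim, at 3.91 to 4.40, 3.70 to 4.61 and 3.50 to 4.96, each highest in db/+ 105. Zfp36 encodes tristetraprolin, an mRNA decay factor that is itself an early response gene. Its level was 12.29 in db/+ 105 and 10.54 in db/+ 106, and r was 0.86 without the 2 farthest arrays, against 0.55 for Rorb. An r above 0.7 with the members' mean was seen for 163 of 15437 genes, or 1.06%. In the list of 43 other early response genes it was seen for 4, or 9.30%: Zfp36, Btg2 (0.85), Ccn1 (0.79) and Socs3 (0.79). Among 12 other AP-1 genes it was seen for Fosl2 (0.76) and Jun (0.72). The genes most like Fos alone were Nupl1 (0.88), Elf2 (0.85), Bsdc1 (0.83), Cdyl (0.82), Cd83 (0.82) and Grik2 (0.81), and 0 of the 43 other early response genes passed 0.7 with Fos. All of these points share arrays and normalization, and the correlations are descriptions.

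The other AP-1 genes also split by member. Of 12 measured, 1 rose, 1 fell and 10 did not pass, where 13.4% of all genes were higher and 11.7% lower. Without db/+ 101, 103, 104 and 106 the counts were 0 and 2, against 12.9% of all genes called. Jun, the main partner of Fos and a driver of the Schwann cell response to injury, spanned 10.97 to 11.34 in db/+ 101, 103, 104 and 106, 11.31 to 12.01 for the other 3 db/+ arrays, and 10.65 to 11.06 in db/db. Only db/+ 106 lay within the db/db range. Jun fell by 0.50 ± 0.14 (SE) on the log2 scale (limma, adjusted p = 0.0229), and the difference was -0.70 without db/+ 101, 103, 104 and 106 (adjusted p = 0.028) and -0.61 in arrays 404 to 411 alone (adjusted p = 0.0337). It was not called without db/db 410 or db/db 411 (adjusted p up to 0.0529). Maff, a small Maf protein, rose by 1.08 ± 0.36 (SE, adjusted p = 0.0445). Its call was lost in 9 of the 13 fits that left out 1 array, being kept without db/+ 404, db/+ 407, db/db 110 or db/db 112 (adjusted p 0.0139 to 0.0967), and the value was 0.45 without db/+ 101, 103, 104 and 106 (adjusted p = 0.504). Of the 5 other EGR and NR4A genes, 0 passed in limma or in the exact rank-sum test, with 1 at an unadjusted limma p below 0.05, Nab1, an EGR corepressor (0.30, adjusted p = 0.0756).

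Of 43 other early response genes, 3 were higher, 2 were lower and 38 did not pass, where 13.4% of all genes were higher and 11.7% lower. The median log2 difference was 0.09. Without db/+ 101, 103, 104 and 106, 2 were higher and 2 lower, with a median of -0.05, against 12.9% of all genes called. Thbs1, which encodes the matrix protein thrombospondin 1, was 9.09 to 10.09 in db/+ and 10.52 to 11.01 in db/db, without overlap. It rose by 1.01 ± 0.16 (SE; limma, adjusted p = 0.000907). Sgk1, a kinase gene induced by serum and glucocorticoids, rose by 0.34 ± 0.08 (SE, adjusted p = 0.00612). Ptgs2, which encodes the prostaglandin enzyme COX-2, fell by 0.89 ± 0.23 (SE, adjusted p = 0.015), from 4.97 to 6.52 in db/+ to 4.29 to 4.92 in db/db. Without db/+ 101, 103, 104 and 106, Thbs1 and Ptgs2 still passed, at 0.74 (adjusted p = 0.00747) and -1.09 (adjusted p = 0.00344), and Sgk1 was 0.33 (adjusted p = 0.0789).

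The dual specificity phosphatases other than Dusp1, which remove phosphate from MAP kinases, also split. Of 10 measured, 3 rose and 2 fell, where 13.4% of all genes were higher and 11.7% lower. Without db/+ 101, 103, 104 and 106, 3 rose and 1 fell, against 12.9% of all genes called. Dusp9 was 4.11 to 6.34 in db/+ and 7.80 to 9.04 in db/db, a log2 difference of 3.35 ± 0.34 (SE; limma, adjusted p = 3.15e-05). Dusp3 and Dusp10 rose by 1.78 ± 0.20 (SE, adjusted p = 8.2e-05) and 1.04 ± 0.15 (SE, adjusted p = 0.000404). The groups did not overlap for any of these 3 genes, which were named for their small p. The share of all genes without overlap was 9.68%. Each of the 3 passed in limma without db/+ 101, 103, 104 and 106 (adjusted p = 0.00173, 0.00597 and 0.00576).

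Among 21 upstream kinases and factors, 2 rose, 1 fell and 18 did not pass, where 13.4% of all genes were higher and 11.7% lower. With db/+ 101, 103, 104 and 106 left out, 0 passed in limma, against 12.9% of all genes, with 1 at an unadjusted p below 0.05. Mapkapk2, a kinase downstream of p38, rose by 0.87 ± 0.23 (SE; limma, adjusted p = 0.0143), and Map2k3, which activates p38, by 0.60 ± 0.20 (SE, adjusted p = 0.0429). Mapk10, the neuronal Jun kinase gene, fell by 2.84 ± 0.97 (SE, adjusted p = 0.0477). It was 9.79 to 10.56 in db/+ 101, 103, 104 and 106 and 4.79 to 5.76 in the other 3 db/+ arrays, so that the difference was -0.18 without the 4 (adjusted p = 0.801). Without them the values were 0.34 for Mapkapk2 and 0.14 for Map2k3 (adjusted p = 0.241 and 0.59). When 1 array was left out, the call of Map2k3 was lost in 9 of 13 fits, being kept without db/+ 105, 404 or 407 or db/db 111 (adjusted p 0.00944 to 0.0895). That of Mapk10 was lost in 10 of 13, being kept without db/+ 105, 404 or 407 (adjusted p 0.0127 to 0.0925).

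Genes that accompany Atf3 after nerve injury, whichever tissue they rise in, were counted beside it. Of 15 measured, 1 (Npy) rose, 5 fell and 9 did not pass, where 13.4% of all genes were higher and 11.7% lower. The median log2 difference was -0.83. In the 9 arrays other than db/+ 101, 103, 104 and 106, 2 were higher and 3 lower, against 12.9% of all genes called, and the median was -0.01. Stmn4, a microtubule-binding stathmin, fell by 3.15 ± 0.27 (SE; limma, adjusted p = 1.17e-05) without overlap of the groups. Flrt3, a membrane protein of growing neurites, fell by 1.0 ± 0.21 (SE, adjusted p = 0.00451), and the neurotensin gene Nts fell by 3.54 ± 0.85 (SE, adjusted p = 0.00981). Several of these genes are neuronal, and the neuronal marker list was high in the 4 arrays left out. Its part in these differences was not tested. In the 9 arrays Stmn4 was -2.63 (adjusted p = 0.000865), Flrt3 -0.59 (adjusted p = 0.11) and Nts -2.47 (adjusted p = 0.165).

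Of 16 glucocorticoid responsive genes, which include Sgk1, 7 were higher in db/db, 0 were lower and 9 did not pass. Of all genes, 13.4% were higher and 11.7% lower. In the 9 arrays other than db/+ 101, 103, 104 and 106, 1 was higher and 0 were lower, with 8 at an unadjusted limma p below 0.05. In those arrays 12.9% of all genes were called. Fkbp5, a chaperone of the glucocorticoid receptor, rose by 1.25 ± 0.26 (SE; limma, adjusted p = 0.00416), and Cdkn1a, the cell cycle inhibitor p21, by 0.64 ± 0.14 (SE, adjusted p = 0.00493). Of 7 heat shock genes, 0 rose and 1 fell, the chaperone gene Hsph1, by 0.42 ± 0.12 (SE, adjusted p = 0.0266), which was not called without db/+ 103, 104 or 106 or db/db 409 or 411 (adjusted p 0.00452 to 0.061 over the 13 fits). In the same 9 arrays Fkbp5 was 0.83 (adjusted p = 0.0916), Cdkn1a 0.68 (adjusted p = 0.0518) and Hsph1 -0.15 (adjusted p = 0.438).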

How the data were processed

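Nerve RNA was amplified and biotin-labelled for 1-colour arrays, per the labels' protocols. The authors deposited log2 levels, and the submitters' processing notes name RMA. This method corrects for background, brings all arrays to the same distribution and combines the probes of a set, which compresses folds of dim genes. The RMA version, platform and probe set design were not given in the sources used here. No further normalization was applied, and no detection calls come with the values.

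The 42 control probe sets were left out, leaving 15437, of which 14801 were paired with 1 gene symbol and 636 with none. Groups followed the genotype in the labels. Every gene was tested with lmFit and eBayes of limma 3.58.1 (R 4.3.3), two-sided, adjusted by Benjamini-Hochberg over all 15437 genes at a threshold of 0.05. The fit recovered known changes in simulated data with independent noise for each gene and array. That simulation does not cover arrays in which many genes shift together, as they do here. Pair correlations used 100000 permutations within genotypes. Other steps used Python 3.11.15 with pandas 2.3.3 and numpy 2.4.6.

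The members and the 20 other lists, 260 distinct genes in all with 231 measured, were chosen with earlier results of these data known. Named genes are the 10 members, Lepr, the 3 genes with the smallest p among those called in each pathway list (or the 1 with the smallest p where none was called), and the 6 genes most like Fos and most like the members' mean. Genes named outside this rule (Btg2, Ccn1, Socs3, Fosl2, Npy and Il6) were chosen after their values were seen. Alternatives were an intensity trend (also with robust moderation), renewed quantile normalization, median centring, a filter on genes below the 0.25 quantile, array weights, an exact rank-sum test, a block for the number series, arrays 101 to 112 or 404 to 411 by themselves, and leaving out each array or db/+ 101, 103, 104 and 106. An exact permutation test was also run for each member and read by its unadjusted p. Leaving out db/+ 105 and 106 and testing the series themselves were added after the data were seen.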

Additional observations from a re-analysis of the deposited data

Results flagged for a closer look

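Within each genotype, the highest or lowest array was compared with the rest for 41 genes, 82 groups of values, and 8 held an array far from the others. Chance flags about 1 in 20 such groups where genes are not chosen by their values, and genes that vary together are flagged together. Of the 8, 6 were high values of db/+ 105. The share of the group's range that separated db/+ 105 from its nearest neighbour was 0.613 for Fosb (10.37 against 8.15), 0.783 for Nr4a1 (10.11 against 9.21) and 0.635 for Jun (12.01 against 11.35). It was 0.623 for Grik2 (7.76 against 6.41), 0.752 for Tpbpb (4.40 against 4.03) and 0.748 for Fasl (4.96 against 3.87). These genes were chosen for their likeness to Fos or to the members' mean, both highest in db/+ 105. Their flags therefore partly follow from the choice, and the share of 1 in 20 does not apply to them. Thbs1 was high in db/db 409 (11.01 against 10.65, share 0.727), and Dusp3 in db/+ 407 (7.84 against 7.02, share 0.61).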

How the results depend on the processing

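The 10 members' differences were recomputed under 259 combinations of gene and setting: 213 kept direction and side of the threshold, 31 lost the call, 7 gained it and 8 changed sign. The settings included an exact permutation test, whose unadjusted p was set against the threshold. The gains include Egr1 by that test (exact permutation p = 0.0221, unadjusted). Changes of sign touched members that were not called: Fos was 0.21 and Nr4a1 0.07 in arrays 404 to 411, Junb 0.27 with array weights, and Dusp1 -0.03 in arrays 404 to 411, -0.17 without db/+ 101, 103, 104 and 106 and -0.18 with the series also as a block. Mapk10 was 0.03 in arrays 404 to 411. Leaving out 1 array moved Junb between -0.35 and 0.03 and Dusp1 between -0.05 and 0.11. Genes called over the whole table, 3867 with all arrays, were 6525 with array weights, 1404 in arrays 404 to 411, 1992 without db/+ 101, 103, 104 and 106, and 2893 to 4529 without 1 array. Members called were 2 in arrays 101 to 112, 0 in arrays 404 to 411, 1 without db/+ 101, 103, 104 and 106, and 2 to 5 without 1 array. These sets hold fewer arrays. Pairs past the threshold, 5 over all arrays, were 9 without subtracting genotype means, 2 by Spearman, 8 without db/+ 101, 103, 104 and 106, 3 without db/+ 105 and 106, and 2 to 6 without 1 array. Genes whose genotype difference differed between the series numbered 0 to 1311 without 1 array, the highest without db/+ 105; the cause was not tested. No paired analysis was possible because the groups share no sample numbers. Arrays numbering 7 and 6 limit the precision.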

Other observations

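Il6, the cytokine gene that acts upstream of Socs3, was looked at after the deviations of db/+ 105 and db/db 409 were seen. Its level was 6.64 in db/+ 105 against 3.58 to 5.36 in the other db/+ arrays, and 7.44 in db/db 409 against 4.49 to 5.23 in the other db/db arrays. Socs3 was 10.80 in db/+ 105 and 10.27 in db/db 409, the highest array of each genotype. Between the genotypes neither gene passed, at 0.50 ± 0.57 (SE; limma, adjusted p = 0.548) for Il6 and -0.40 ± 0.28 (SE, adjusted p = 0.32) for Socs3.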
